A study of Mus musculus with 8 samples.

Results

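The multidrug efflux transporters of the ABC family are membrane pumps that use ATP to move drugs and drug conjugates out of cells. The 9 genes described here, Abcc1, Abcc2, Abcc3, Abcc4, Abcc5, Abcc10, Abcb1a, Abcb1b and Abcg2, were found by symbol, and all 9 were listed among the 18645 genes of the hepatic stellate cell table and the 17408 genes of the macrophage table. RNA was sequenced from primary C57BL/6 mouse cells in 8 libraries, 2 in each of 4 groups. Activated hepatic stellate cells (HSCs), the matrix-producing cells of the injured liver, were exposed for 12 h to 0.03 µM auranofin or served as controls. These controls are untreated by the labels and vehicle-treated by the paper. Auranofin is a gold-containing drug reported to inhibit thioredoxin reductase. The paper found macrophages and HSCs to lack that enzyme and proposes the cystine-glutamate antiporter, system Xc, as the target there. Bone marrow-derived macrophages (BMDM) all received 100 ng/mL lipopolysaccharide (LPS) and 1 mM ATP, with or without auranofin for 1 h, at a dose of 0.1 µM by the labels and 0.3 µM by the paper. The HSCs had been enriched from liver by density gradient and the BMDM grown from marrow with M-CSF.

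ABC pumps bind their cargo in a transmembrane cavity and turn it outward when ATP binds to their paired nucleotide-binding domains. Proteins of the ABCC group, the multidrug resistance-associated proteins, mainly carry organic anions such as conjugates of glutathione, glucuronide and sulfate, so they follow the conjugating enzymes in the disposal of electrophiles. ABCB1, or P-glycoprotein, which in mice is encoded by a pair of genes, carries mostly unconjugated, often hydrophobic compounds. ABCG2 works as a dimer. Several ABCC genes are known targets of the oxidant-responsive transcription factor NRF2.

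Values are FPKM, fragments scaled to the length of the transcript and the size of the library, so they can be set side by side between genes. The libraries held an estimated 27500000 to 39400000 fragments. The HSC libraries carried the stellate transcripts Acta2 (between 737 and 965 FPKM) and Col1a1 (between 927 and 1075 FPKM), but also those of other liver cells. Of 15 macrophage markers, 14 had a mean of 1 FPKM or more, with Lyz2 between 5379 and 5554 FPKM, and all 15 liver endothelial markers did so. None of the 9 hepatocyte markers listed reached a mean of 1 FPKM, and Alb was at or below 1.22 FPKM in every HSC library. Of 9 bile duct markers listed, 5 reached that mean, with Krt19 between 6.26 and 7.40 FPKM, Aqp1 between 41.0 and 58.8 FPKM and Spp1 between 351 and 464 FPKM, while Epcam was at or below 0.44 FPKM. The 15 macrophage markers summed to between 8874 and 9210 FPKM in the HSC libraries, and the 15 stellate markers to between 4111 and 4781 FPKM. Below, the name HSCs stands for these mixed cultures. Which cells of the cultures carried the transporter transcripts was not tested. In such bulk samples fewer cells of a type and less RNA per cell cannot be told apart. The BMDM libraries held the macrophage marker Adgre1 at 359 to 418 FPKM, against 103 to 111 FPKM in the HSC libraries. Lyz2 was at 3625.2 to 4278.5 FPKM in BMDM, below its HSC values, and levels were not tested between the cell types. Of the 14 stellate markers listed for BMDM, 3 reached a mean of 1 FPKM. These were Col1a1, Col1a2 and Timp1, with values between 1.59 and 5.54 FPKM. The stellate markers summed to between 10.4 and 16.5 FPKM in BMDM, and Des, Lum and Tcf21 lay at or below 0.0828 FPKM.

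In control HSCs, transcripts of the transporters spanned a wide range, and most of it came from the ABCC group. Abcc5, which exports cyclic nucleotides and nucleotide analogues, led with a mean of 39.1 ± 1.74 FPKM (SD, n = 2). Abcc1, the broad exporter of glutathione conjugates and leukotriene C4, followed with 31.3 ± 0.585 FPKM (SD, n = 2). These genes made up 33.9% and 27.0% of the summed FPKM of all 9 genes. Next came Abcc3 at 13.4 ± 0.739 FPKM and Abcg2 at 13.1 ± 0.341 FPKM (SD, n = 2 each), whose control libraries overlapped. The remaining genes were lower, in the order Abcb1b, Abcc4, Abcb1a, Abcc10 and Abcc2, and apart from Abcc3 and Abcg2 no neighbours in this order overlapped. Abcc5 has a short RefSeq transcript of 1136 bases beside one of 5811 bases, so its level depends on how fragments were divided between them. Abcc2, the exporter of the bile canaliculus, was at 0.0649 and 0.0576 FPKM in the control libraries, or about 16.4 and 15.3 fragments on 8027 bases.

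In control BMDM the order differed. Abcc1 led at 38.5 ± 1.38 FPKM (SD, n = 2), 40.6% of the sum, and was followed by Abcc5 at 18.3 ± 1.57 FPKM, Abcb1b at 15.6 ± 0.25 FPKM and Abcc3 at 12.3 ± 0.888 FPKM (SD, n = 2 each). Abcb1a came next at 6.49 ± 0.368 FPKM. Abcc4, Abcg2, Abcc10 and Abcc2 were at 1.79, 1.56, 0.287 and 0.0264 FPKM, and no neighbours overlapped. Abcg2, a pump of many drugs, urate and porphyrins, was at rank 4 of the 9 genes in HSCs and at rank 7 in BMDM. The tables were normalized separately and the cultures differ in cells and treatment, so levels were not tested between them.

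**Figure D1:**
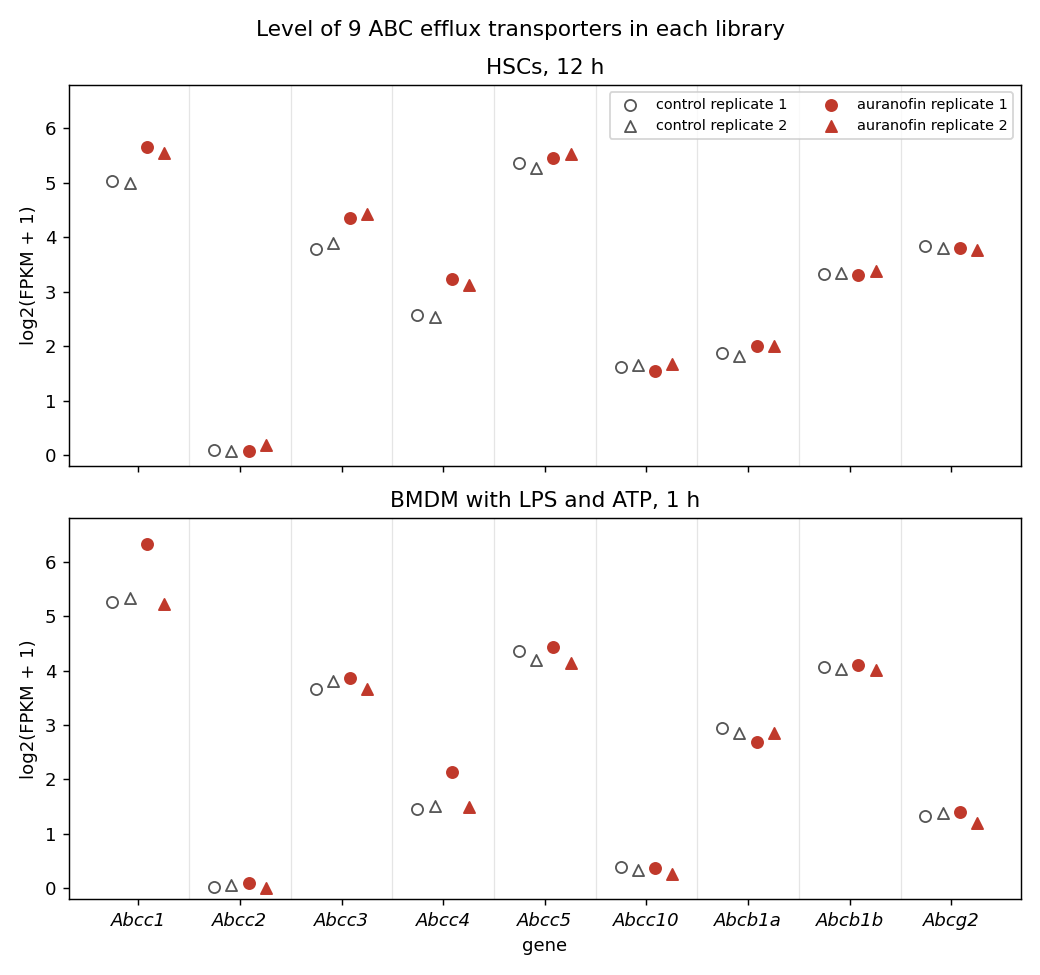
Level of each transporter gene on the scale log2(FPKM + 1) in the 4 HSC libraries (top) and the 4 BMDM libraries (bottom), with open symbols for control and filled symbols for auranofin, circles for replicate 1 and triangles for replicate 2. Abcc1, Abcc3 and Abcc4 separate by group in HSCs, whereas in BMDM auranofin replicate 1 alone stands above the others for Abcc1 and Abcc4.

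The first comparison asks how transporter transcripts differed after 12 h of auranofin in the HSC cultures. Abcc1, Abcc3 and Abcc4 rose, by 0.55 to 0.63 on the log2 scale, while Abcb1b, Abcg2 and Abcc10 had auranofin means of 0.97 to 1.01 times the control mean. Abcc5 and Abcb1a lay slightly higher in both auranofin libraries but did not pass the adjusted test. No member was called lower. Fold changes are differences of log2(FPKM + 1), which understate the change of genes with low values, and were tested with limma over the 12149 genes whose mean reached 1 FPKM. Abcc2 did not reach this mean and was not tested. Labels do not say that replicates were separate cultures, so p-values measure only the spread between these samples, and permuting 2 libraries against 2 exactly gives no p under 0.333.

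Abcc1 (NCBI gene 17250, mm10 chromosome 16 from 14361453 to 14474878) had 31.7 and 30.8 FPKM with control and 49.4 and 46.0 FPKM with auranofin. Both auranofin libraries stood clear of both controls. The log2 fold change was 0.59 (standard error 0.05, 95% interval 0.48 to 0.71, limma's Benjamini-Hochberg adjusted p = 0.00606). It was the 75th largest rise of the genes tested.

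Abcc4 (gene 239273, chromosome 14 from 118482692 to 118707856) exports cyclic nucleotides, prostaglandins and nucleoside drugs and sits on the sinusoidal side of hepatocytes. It had 4.93 and 4.79 FPKM with control and 8.40 and 7.76 FPKM with auranofin, again without overlap. Its log2 fold change of 0.63 was the largest among the members (standard error 0.06, 95% interval 0.49 to 0.77, limma's Benjamini-Hochberg adjusted p = 0.00969). As the lowest of the 3 genes that rose, it was the most affected by the scale, and its log2 fold change was 0.41 with a pseudocount of 5 in place of 1 and 0.72 with 0.1. In FPKM, the auranofin mean was 1.66 times the control mean.

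Abcc3 (gene 76408, chromosome 11 from 94343295 to 94393017) exports glucuronides and bile acids across the basolateral membrane of liver and gut cells. Its control libraries had 12.8 and 13.9 FPKM and its auranofin libraries 19.5 and 20.5 FPKM. These groups did not overlap either. The log2 fold change of 0.55 (standard error 0.05, 95% interval 0.42 to 0.68, limma's Benjamini-Hochberg adjusted p = 0.0112) was a 1.46-fold change, just under the 1.5-fold threshold. Its interval overlapped those of Abcc1 and Abcc4, and the differences between the 3 genes were not tested.

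Past 1.5-fold, with p under 0.05 before adjustment, 2 members were called higher, Abcc1 and Abcc4, of 8 tested, beside 0.428% of all genes tested. Without auranofin replicate 1 that number was 0, since the log2 fold changes became 0.54 for Abcc1 and 0.58 for Abcc4, with adjusted p of 0.0122 and 0.0213 from limma. By the Benjamini-Hochberg adjusted p of limma, 3 members were under 0.05 and thus called higher, beside 1.24% of all genes tested. With no filter on low values, which brings 18645 genes into the adjustment, the adjusted p from limma was 0.0409 for Abcc1 and 0.0608 for both Abcc3 and Abcc4. The control and auranofin libraries of 5 members did not overlap, all with the higher values under auranofin, but 50.1% of all genes tested were separated in either direction. An unadjusted p under 0.05 from limma was found for 4 of the 8 members tested and for 17.8% of all genes tested. The median log2 fold change of these 8 members was 0.16, and that of all genes tested was 0.00487.

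None of the other ABCC genes passed the adjusted test. Abcc5 (gene 27416, chromosome 16 from 20331303 to 20426428) had 40.4 and 37.9 FPKM with control and 43.1 and 45.5 FPKM with auranofin. The groups were separate by a margin similar to the spread within each, and the log2 fold change of 0.17 (standard error 0.05) had an adjusted p of 0.149 from limma. Abcc10 (gene 224814, chromosome 17 from 46303220 to 46328031), which carries taxanes and nucleoside analogues, had 2.07 and 2.16 FPKM with control and 1.93 and 2.18 FPKM with auranofin. The groups overlapped, and the 95% interval of the log2 fold change ran from -0.22 to 0.16. Abcc2 (gene 12780, chromosome 19 from 43782308 to 43838332) had 0.0550 and 0.137 FPKM with auranofin, about 13.2 and 43.4 fragments, so that 1 library lay above the controls and the other below them.

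No member outside the ABCC group passed the adjusted test. Abcb1a (gene 18671, chromosome 5 from 8567091 to 8748575) encodes the P-glycoprotein of the mouse blood-brain barrier and gut, and had 2.67 and 2.53 FPKM with control and 2.99 and 3.0 FPKM with auranofin. The groups did not overlap, and the log2 fold change of 0.15 (standard error 0.06) had an adjusted p of 0.290 from limma. Its neighbour Abcb1b (gene 18669, chromosome 5 from 8798147 to 8866314), the P-glycoprotein gene of the adrenal and the pregnant uterus, had 9.05 and 9.16 FPKM with control and 8.87 and 9.46 FPKM with auranofin. Here the control libraries lay between the auranofin libraries, and the 95% interval of the log2 fold change ran from -0.12 to 0.13. Abcg2 (gene 26357, chromosome 6 from 58584491 to 58692451) had 13.4 and 12.9 FPKM with control and 12.9 and 12.5 FPKM with auranofin. Its groups overlapped as well, with a 95% interval of -0.15 to 0.07.

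Abcb1a and Abcb1b are near copies, and 768 of the 4948 windows of 50 bases in the Abcb1a transcript, or 15.5%, were also found in that of Abcb1b. No other pair of members shared such a window. How the authors' counting divided these fragments is not known, so the balance within the pair is uncertain. As deposited, the ratio of Abcb1b to Abcb1a was 3.39 and 3.62 in control HSCs and 2.96 and 3.15 in auranofin HSCs. In the exons of the GENCODE annotation, Abcb1a shares 553 bases with the antisense gene Gm42686, Abcb1b 143 bases with Gm5106 and Abcc10 51 bases with Dlk2. The libraries were stranded, but whether the counting used the strand is not given in the sources used here.

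**Figure D2:**
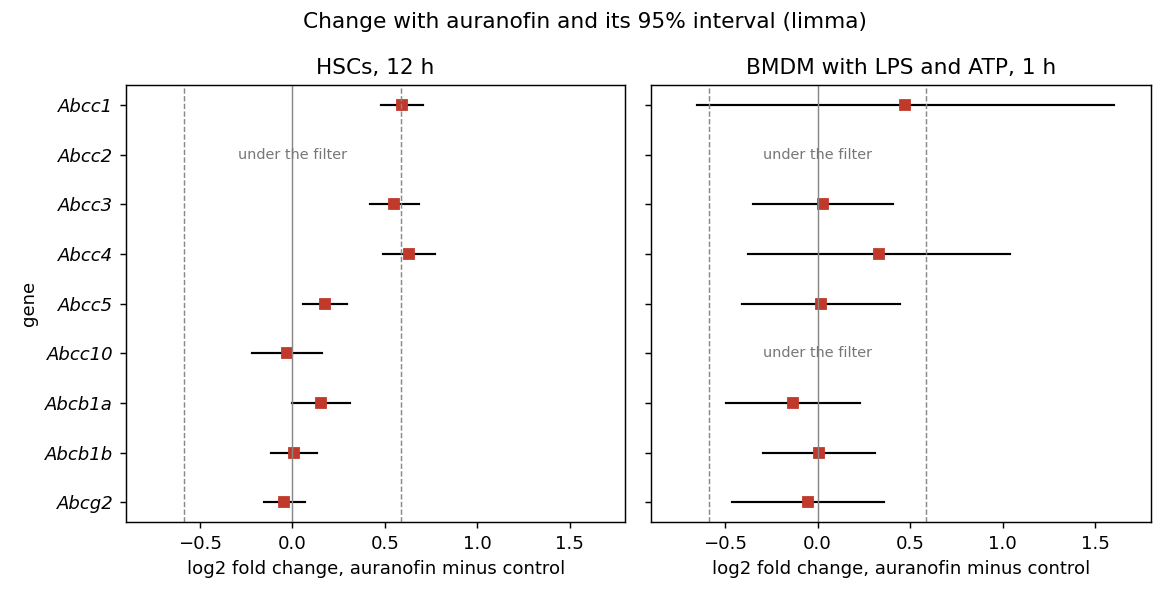
Log2 fold change of each transporter gene with auranofin (squares) and its 95% interval from limma (bars), for HSCs at left and BMDM at right, with dashed lines at 1.5-fold in either direction. In HSCs the intervals of Abcc1, Abcc3, Abcc4 and Abcc5 lie above 0, and in BMDM all 7 intervals include 0.

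Summed over the 9 genes, transporter transcripts came to 117 and 114 FPKM in control HSCs and to 147.2 and 147.1 FPKM with auranofin. Without Abcc1 the sums were 85.4 and 83.4 FPKM with control and 97.8 and 101 FPKM with auranofin. Both sums were higher in each auranofin library than in either control. Summed markers of the cell types are given for comparison, although single markers moved either way. Of 14 macrophage markers tested, 3 had a log2 fold change above 0 and 11 below, and of 15 endothelial markers 6 and 9. Lyz2 alone had 5379 to 5554 FPKM within the macrophage sum. The macrophage sum was 9072 and 9210 FPKM with control and 8874 and 8890 FPKM with auranofin, and the endothelial sum was 722 and 695 FPKM with control and 705 and 674 FPKM with auranofin. The stellate sum was lower under auranofin, at 4111 and 4179 FPKM against 4661 and 4781 FPKM, and the part of any of these in the transporter values was not tested.

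The sequence before the transcription starts of the members was read for the core of the antioxidant response element. NRF2 binds this element with small MAF proteins, and its core was taken here as the letters TGACNNNGC on either strand. In the RefSeq promoter table of mm10 (GRCm38.p6), 7 of the 9 members had entries, with 11 starts. Abcc1 and Abcc3 had none. The core was present in the 250 bases before 4 of the 11 starts, in Abcc4, Abcc10 and Abcc2, and in 10.2% of 32851 such windows over all genes. By gene, 3 of the 7 members with entries held the core, beside 11.5% of 27025 genes, and the difference was not tested. Both windows listed for Abcc4 held it. They are shown whole, 5′ to 3′ on the minus strand of chromosome 14, with the core in capitals. Abcc4 was chosen as the only member with an entry that passed the adjusted test in HSCs. The outer start window (chr14:118706220-118706469) holds the core on the strand opposite to the gene, 16 bases from the start. The inner window (chr14:118676932-118677181) holds it on the strand of the gene, 14 bases from the start. As annotated, the gene reaches to 118707856, beyond the outer of these starts, and the bases before that end were not read.
Abcc4 outer start: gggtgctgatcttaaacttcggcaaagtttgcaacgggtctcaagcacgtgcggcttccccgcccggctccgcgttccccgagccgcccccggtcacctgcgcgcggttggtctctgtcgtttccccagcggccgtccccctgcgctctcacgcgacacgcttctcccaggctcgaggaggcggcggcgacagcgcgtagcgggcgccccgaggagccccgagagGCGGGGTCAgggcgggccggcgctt
Abcc4 inner start: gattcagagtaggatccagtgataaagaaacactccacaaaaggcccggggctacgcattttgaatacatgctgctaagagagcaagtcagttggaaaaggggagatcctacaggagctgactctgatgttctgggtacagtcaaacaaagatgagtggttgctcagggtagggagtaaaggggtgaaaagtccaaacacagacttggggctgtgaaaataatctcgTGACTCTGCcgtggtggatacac
The windows differ in composition, with 72% G and C in the outer and 47.6% in the inner. For comparison, the core with 10 bases on either side is shown for the members in which the gene did not pass the test or was too low for it.
Abcc10 (chr17:46328208-46328236, minus strand): cgcagcacccTGACCTGGCagcgcgtcct
Abcc2 (chr19:43782200-43782228, plus strand): ctcactgggaTGACATAGCattcatctag
Abcb1a, Abcb1b, Abcg2 and Abcc5 had no match in these windows, although Abcc5 and Abcb1a lay slightly higher in both auranofin HSC libraries. Whether a match goes with a change in level was not tested. A match to these letters is a description of the sequence, and binding was not measured.

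The second comparison asks how auranofin changed the same genes in LPS and ATP-treated BMDM within 1 h. The auranofin libraries disagreed, and no member passed a test. Abcc1 had 37.5 and 39.5 FPKM with control, but 79.6 FPKM in replicate 1 and 36.3 FPKM in replicate 2 of auranofin. The high value was 2.07 times the control mean, and the other auranofin library lay below both controls. Abcc4 had 1.73 and 1.85 FPKM with control and 3.38 and 1.82 FPKM with auranofin. In this gene too, replicate 1 stood alone and replicate 2 lay between the controls.

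The log2 fold changes were therefore uncertain. For Abcc1 it was 0.47 (standard error 0.41, 95% interval -0.65 to 1.60, limma's Benjamini-Hochberg adjusted p = 0.721). For Abcc4 it was 0.33 (standard error 0.26, 95% interval -0.38 to 1.04, limma's Benjamini-Hochberg adjusted p = 0.721). Both rested on auranofin replicate 1. Without it the log2 fold changes were -0.08 for Abcc1 and 0.02 for Abcc4. Without auranofin replicate 2 they were 1.03 and 0.65, with adjusted p of 0.000172 and 0.00264 from limma, a fit in which the lone auranofin library is assumed to vary like the controls. In that fit 6051 of 9285 genes had an adjusted p under 0.05, against 1 of 9232 genes with all 4 libraries.

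Auranofin replicate 1 stood apart across the table. Of the 9232 genes tested in BMDM, 1401 were at least 1.5-fold above the control mean in it (15.2%) and 745 at least 1.5-fold below. In auranofin replicate 2, 35 genes were above (0.379%) and 26 below. Among the 7 members tested, Abcc1 and Abcc4 were at least 1.5-fold above in replicate 1 and none in replicate 2. The summed macrophage markers were 9841 and 9710 FPKM with control and 10728 and 9933 FPKM with auranofin replicates 1 and 2, and the estimated depths of both auranofin libraries were close, at 34900000 and 34500000 fragments. What set these libraries apart was not tested.

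**Figure D3:**
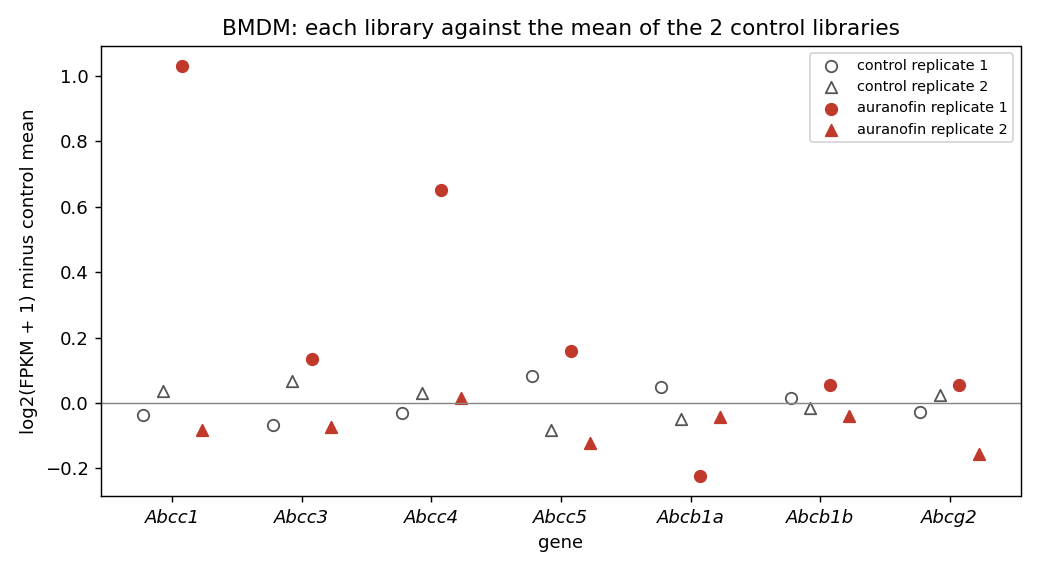
Difference of log2(FPKM + 1) from the mean of both control libraries for the 7 members tested in BMDM, with open symbols for control, filled symbols for auranofin, circles for replicate 1 and triangles for replicate 2. Auranofin replicate 1 lies at 1.03 for Abcc1 and 0.65 for Abcc4, and auranofin replicate 2 lies between -0.16 and 0.02 for all 7.

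In the other members tested in BMDM the log2 fold change was at most 0.13 in size. Abcc3 had 11.7 and 13.0 FPKM with control and 13.6 and 11.7 FPKM with auranofin, and Abcc5 had 19.4 and 17.2 FPKM with control and 20.5 and 16.7 FPKM with auranofin. Abcb1b had 15.8 and 15.4 FPKM with control and 16.2 and 15.1 FPKM with auranofin. In these genes replicate 1 was the highest and replicate 2 the lowest of the 4 libraries, as in Abcg2, where the values were 1.51 and 1.60 FPKM with control and 1.66 and 1.29 FPKM with auranofin. Abcb1a went the other way, with 6.75 and 6.23 FPKM with control, and with auranofin 5.42 FPKM in replicate 1 and 6.26 FPKM in replicate 2. The ratio of Abcb1b to Abcb1a was accordingly 3.0 in auranofin replicate 1 and between 2.34 and 2.47 in the other libraries.

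Abcc10 and Abcc2 were too low for the test. Abcc10 had 0.316 and 0.257 FPKM with control and 0.292 and 0.197 FPKM with auranofin. Abcc2 had 0.0124 and 0.0405 FPKM with control and 0.0686 FPKM in auranofin replicate 1, and was listed at 0 in replicate 2, where 3 fragments would amount to 0.0108 FPKM. At these levels no difference was tested.

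No member passed the 1.5-fold and unadjusted p threshold in either direction in BMDM, beside 0.152% of genes tested, and none had an adjusted p under 0.05 from limma, beside 0.0108%. At an unadjusted p under 0.05 from limma the number was also 0 of 7, beside 0.531% of genes tested. All 9 members had overlapping groups, while 38.8% of genes tested did not overlap. Apart from Abcc1 and Abcc4 the log2 fold changes ran from -0.13 in Abcb1a to 0.03 in Abcc3. The median was 0.02 over the 7 members and 0.09 over all genes tested. Standard errors of the members were between 0.11 and 0.41 in BMDM and between 0.04 and 0.08 in HSCs. HSCs and BMDM were not tested against each other, since dose and time differ and the tables were normalized separately.

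The pattern of Abcc1 over the 8 libraries was compared with those of 8962 genes tested in both tables, as the Euclidean distance between their differences of log2(FPKM + 1) from the control mean of the same table. The 3 nearest genes were Slc11a1, a phagosomal metal ion transporter, at a distance of 0.0977, Cmip at 0.122 and Creg1, a lysosomal glycoprotein, at 0.215. Slc11a1 had 76.9 and 75.4 FPKM in control HSCs, 118 and 114 FPKM in auranofin HSCs, 47.5 and 48.9 FPKM in control BMDM, and 105 and 46.4 FPKM in auranofin BMDM. Of the members, Abcc4 was the closest to Abcc1, at a distance of 0.395 and rank 24. Abcc3 ranked 961 and Abcc5 2522, and the others lay farther away. These distances give much weight to auranofin replicate 1 of BMDM, which moved many genes.

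**Figure D4:**
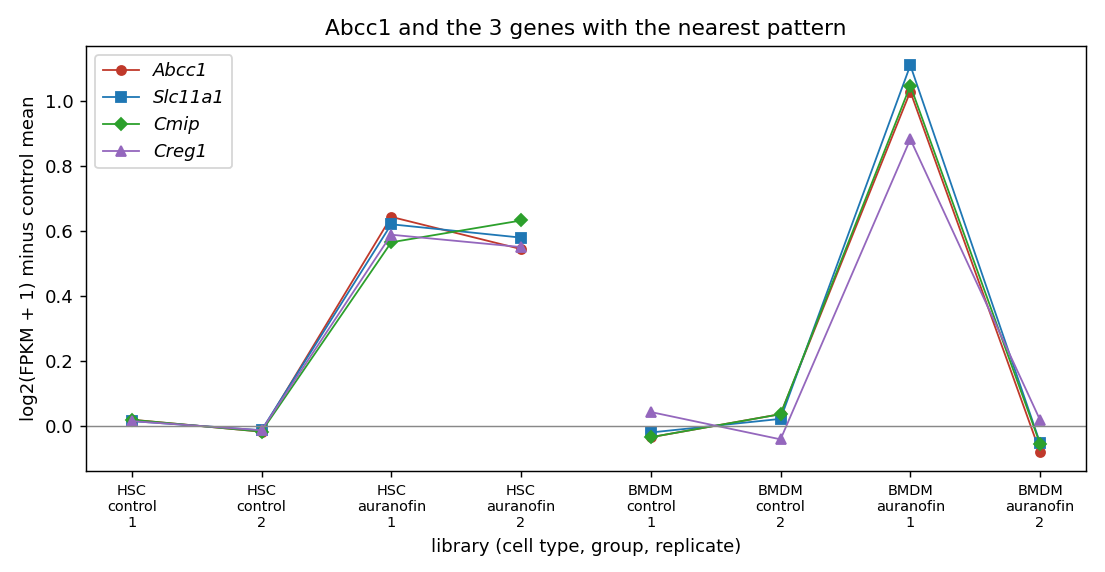
Difference of log2(FPKM + 1) from the control mean of the same table in each of the 8 libraries for Abcc1 and the 3 genes with the nearest pattern, with lines joining the points of a gene within a table as a guide only. All 4 genes are higher in both auranofin libraries of HSCs and in auranofin replicate 1 of BMDM, and near 0 in auranofin replicate 2 of BMDM.

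The ABC family holds many genes outside the members, and 39 of these were looked at beside them. They were listed as genes that move lipids and sterols, serve mitochondria, peroxisomes and lysosomes, or handle peptides, form channels or do not transport. The lists do not sort genes by whether they can also carry drugs. In HSCs 27 of the 39 were tested and 1 was called, beside 0.428% of all genes tested that were called higher past 1.5-fold. This was Abcb6, a porphyrin transporter, which rose. It had 6.60 and 6.58 FPKM with control and 11.03 and 10.7 FPKM with auranofin, with a log2 fold change of 0.65 (standard error 0.05, limma's Benjamini-Hochberg adjusted p = 0.00445). None was called lower, 7 of the 27 had an unadjusted p under 0.05, beside the 17.8% of all genes tested, and the median log2 fold change was 0.02. Abca1, the cholesterol and phospholipid exporter, had the lowest log2 fold change, at -0.16 (limma's Benjamini-Hochberg adjusted p = 0.118). In BMDM none of 19 tested was called by limma, 0 had an unadjusted p under 0.05, and the median was 0.07. There Abcb6 had 2.52 and 2.89 FPKM with control and 5.70 and 2.83 FPKM with auranofin, so replicate 1 stood apart as in Abcc1.

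**Figure D5:**
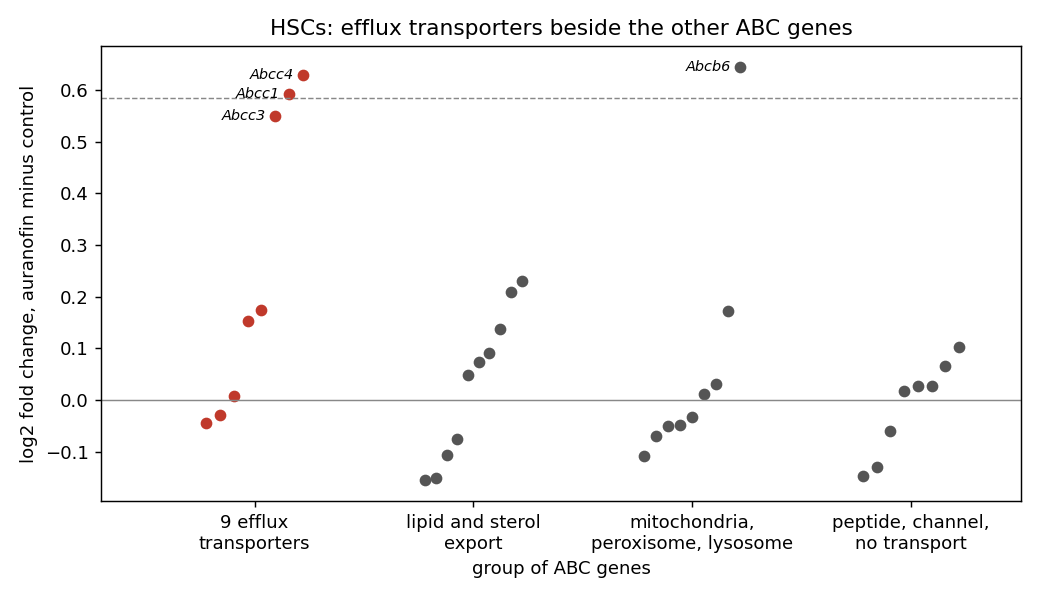
Log2 fold change with auranofin in HSCs for each ABC gene tested, with the efflux transporters in red at left, the other ABC genes by group in grey, genes in each group ordered by value, and a dashed line at 1.5-fold. Abcc1, Abcc3, Abcc4 and Abcb6 lie above 0.4 and all other ABC genes between -0.16 and 0.23.

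Conjugating enzymes make much of the cargo of ABCC pumps. The list of them used here also holds genes that supply the attached molecules, Gclc, Gclm, Gss and Ugdh. Genes of this list rose in HSCs. Of 26 tested, 4 were called higher past 1.5-fold, beside 0.428% of all genes tested, and 0 lower. At an adjusted p under 0.05 from limma 8 were higher, beside 1.24% of all genes tested. The median log2 fold change was 0.32. Gclm, the modifier subunit of the enzyme that starts glutathione synthesis, went from 40.01 and 34.9 FPKM to 121 and 107 FPKM. The other 3 past 1.5-fold were glutathione S-transferase genes, with log2 fold changes of 1.42 in Gsta3, 1.12 in Gsta4 and 1.10 in Gstm1. Of all 26, 22 had a log2 fold change above 0 and 4 below, and the lowest, named after its values were seen, was that of the microsomal transferase gene Mgst3 at -0.22 (adjusted p = 0.0641 from limma). Close copies exist for the transferase genes, among which the counting could have split fragments. In BMDM none of 19 tested was called by limma and 0 had an unadjusted p under 0.05. Their summed FPKM was 204.5 and 201 with control, and with auranofin 447 in replicate 1 and 206 in replicate 2, the same split between libraries as in Abcc1.

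Uptake carriers, which bring drugs and organic ions into cells, had 10 genes tested in HSCs. None was called past 1.5-fold and 5 of the 10 had an unadjusted p under 0.05 from limma, beside 17.8% of all genes tested, with a median log2 fold change of -0.04. The carrier of ergothioneine and organic cations Slc22a4, named after its values were seen, rose from 5.40 and 5.09 FPKM to 7.28 and 8.24 FPKM (log2 fold change 0.49, limma's Benjamini-Hochberg adjusted p = 0.0339). In BMDM none of 8 was called and 0 had an unadjusted p under 0.05 from limma.

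Among 13 regulators and membrane anchors of efflux pumps tested in HSCs, none was called past 1.5-fold by limma, 5 had an unadjusted p under 0.05, beside 17.8% of all genes tested, and the median log2 fold change was -0.02. With an adjusted p under 0.05 from limma, 2 genes were lower, both named after their values were seen. Of all 12149 genes tested, 283 were under that adjusted p in either direction. Nfe2l2, which encodes NRF2, fell from 123 and 119 FPKM to 102 and 99.0 FPKM (log2 fold change -0.26, limma's Benjamini-Hochberg adjusted p = 0.0289). That is a transcript level, and NRF2 protein or activity was not measured. Cav1, which encodes the caveolar protein caveolin-1, fell from 56.9 and 54.8 FPKM to 45.8 and 43.2 FPKM (log2 fold change -0.32, limma's Benjamini-Hochberg adjusted p = 0.0278). In BMDM none of 11 was called and 0 had an unadjusted p under 0.05 from limma.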

How the data were processed

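Poly(A) RNA of 8 libraries was sequenced after a stranded mRNA preparation. The submitters' processing notes name CASAVA, FastQC 0.11.7, Trimmomatic 0.38, HISAT2 2.1.0, StringTie 1.3.4d and mm10. The authors deposited FPKM values per gene, scaled to transcript length and library size, in a separate table for each cell type. Counts are not given. Depth was estimated from the step that 1 fragment makes in values under 0.2 FPKM of genes with 1 RefSeq transcript, using GENCODE M21 lengths, and covers counting error only. Each table was taken as log2(FPKM + 1), filtered at a mean of 1 FPKM and fitted alone with limma 3.58.1 (lmFit, eBayes with trend; R 4.3.3) without a block. Calls used at least 1.5-fold with an unadjusted p under 0.05, or a Benjamini-Hochberg adjusted p under 0.05. The procedure was also run on simulated data with independent noise for each gene. That setting holds no library in which many genes move together, as in auranofin replicate 1 of BMDM. The members and gene lists were chosen with earlier results of these data known. Beside all 9 members, list genes past the 1.5-fold threshold (at most 4 per list and cell type) and the 3 nearest patterns to Abcc1 are named. Alternatives were pseudocounts of 0.1 and 5, no filter, a mean of 5 FPKM, quantile normalization, median centring, eBayes without trend, a replicate block and each library left out.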

Additional observations from a re-analysis of the deposited data

How the results depend on the processing

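In HSCs the log2 fold changes of Abcc1, Abcc3 and Abcc4 stayed positive with an unadjusted p under 0.05 from limma in all 12 alternatives, between 0.54 and 0.64, between 0.45 and 0.60 and between 0.41 and 0.72. The number of members past 1.5-fold, 2 as reported, was 0 with a pseudocount of 5, 1 with quantile normalization and 1 with median centring, and ran from 0 to 2 with a library left out, with 0 only without auranofin replicate 1. These genes lie close to the threshold. The number at an adjusted p under 0.05, 3 as reported, was 1 with no filter on low values, where more genes are tested. Over all HSC genes, the 52 higher past 1.5-fold became 81 with a pseudocount of 0.1, 31 with 5 and 64 to 91 with a library left out, and the 283 at an adjusted p under 0.05 from limma became 49 with no filter, 129 without trend and 179 to 517 with a library left out. In BMDM the 2 numbers, both 0, ran from 0 to 2 with a library left out, with 2 only without auranofin replicate 2. Values near 0 changed sign. That of Abcc1 in BMDM, 0.474 as reported, did so only without auranofin replicate 1, where it was -0.0809. In HSCs, Abcb1b was at -0.0023 with median centring and between -0.0341 and 0.0505 with a library left out, and Abcc10 between -0.0904 and 0.0304. In BMDM, quantile normalization and median centring gave -0.0504 and -0.0616 for Abcc3, -0.0358 and -0.0737 for Abcc5 and -0.0567 and -0.0851 for Abcb1b. With a library left out, the values ran from -0.0809 to 1.03 for Abcc1, -0.0728 to 0.134 for Abcc3, -0.123 to 0.160 for Abcc5, -0.0406 to 0.0550 for Abcb1b and -0.157 to 0.0546 for Abcg2. No call rested on these, except that of Abcc1 without auranofin replicate 2. The cause of these changes was not tested.

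Replicate numbers are shared between groups, but the deviations of same-numbered libraries correlated at 0.11 in HSCs and -0.06 in BMDM over 2 pairs each. The labels do not say what a number marks, and 2 pairs are too few to show whether same-numbered libraries share a batch, so they were not treated as pairs. With the replicate number as a block, limma's adjusted p was 0.00909 for Abcc1, 0.0147 for Abcc3 and 0.0220 for Abcc4 in HSCs, and 0 members were called in BMDM. Abcc2 in both tables and Abcc10 in BMDM lay under the filter and were not tested, and low values limit any comparison of them.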
